A study of Mus musculus with 6 samples.

Results

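The 9 genes described here are the aquaporins Aqp1, Aqp2, Aqp3, Aqp4, Aqp5, Aqp7, Aqp8, Aqp9 and Aqp11. They were found by their symbols among the 23420 genes of a table of mean RNA-seq counts from the mouse uterus, and all 9 were in it. The table compares Foxo1f/f mice, in which both alleles of the forkhead transcription factor gene Foxo1 are flanked by loxP sites, with PgrCre/+ Foxo1f/f mice, named Foxo1d/d below. Females were C57BL/6J and 8 weeks old. Their diet is labelled as standard chow, whereas the methods of the study name a diet free of soy protein. They were mated with vasectomized males so that the uterus was taken at pseudopregnancy day (PPD) 4.5, with no embryo present. Each library held RNA pooled from 2 females, and there were 3 libraries per genotype. Cre is driven by the Pgr gene, which limits the deletion to cells that express or have expressed the progesterone receptor, and the control label names no Cre allele. The effects of Foxo1 loss, of Cre and of a Pgr allele that carries Cre therefore cannot be told apart. The counts on genes averaged 26125014 per Foxo1f/f library and 27257963 per Foxo1d/d library. Because the table gives 1 mean per gene and genotype, and single libraries were not analysed here, no value below has a spread between pools or a test between genotypes.

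Aquaporins are membrane proteins that let water cross the lipid bilayer along an osmotic gradient. The classical channels, such as those encoded by Aqp1, Aqp2, Aqp4, Aqp5 and Aqp8, pass mainly water, whereas the aquaglyceroporins of Aqp3, Aqp7 and Aqp9 also pass glycerol and other small solutes, and Aqp11 encodes an unorthodox member of intracellular membranes. In the uterus they are studied for the movement of fluid into and out of the lumen, which closes around the blastocyst before attachment, and for the stromal edema of early pregnancy, and their transcripts respond to ovarian steroids.

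The targeted gene was examined first. Foxo1 averaged 3941 counts in Foxo1f/f uteri and 1456 in Foxo1d/d. Scaled to the total count of each genotype it was 2.82-fold lower in Foxo1d/d, with a log2 ratio of -1.50 and a counting interval of -1.55 to -1.45. Here and below a log2 ratio compares Foxo1d/d with Foxo1f/f, positive where Foxo1d/d is higher, with a pseudocount of 1 on either mean, and a fold is the ratio of the scaled means without it. The counting interval is the exact 95% binomial interval of the ratio, from counts summed over the 3 libraries of each genotype. It covers counting error only and says nothing of differences between pools. Reads were counted over the whole gene and not over the deleted exon alone, so that the remaining count does not measure how many cells kept an intact gene.

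Of the 9 aquaporins, 6 reached a mean of 10 counts over the genotypes together, and 3 (Aqp2, Aqp4 and Aqp7) did not. Among those 6, Aqp8 and Aqp3 were at least 1.5-fold higher in Foxo1d/d uteri, Aqp5 was at least 1.5-fold lower, and Aqp1, Aqp9 and Aqp11 lay between these limits. The same limits were passed by 5.43% of all 15696 genes with that many counts on the higher side and by 3.51% on the lower side. The counting interval excluded a ratio of 1 for all 6 aquaporins, and for 63.6% of all genes tested, since many genes have enough counts for small differences to exceed counting error. The median log2 ratio of the 6 aquaporins was 0.47, against 0.02 for all genes tested, but it was 0.041 over the 4 aquaporins with at least 100 mean counts, so that it depends on the count limit. Their median absolute log2 ratio was 0.67, against 0.14. The family thus did not move in a single direction, as the plot of ratios against mean counts shows. The number of aquaporins past a limit is small and depends on where the limit is set. With the limit at 0.32 on the log2 scale in place of 0.58, 4 were higher and 2 lower, beside 1968 and 1412 of the 15696 genes tested. At a fold of 2, 2 were higher and 0 lower, beside 313 and 220 of those genes.

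**Figure D1:**
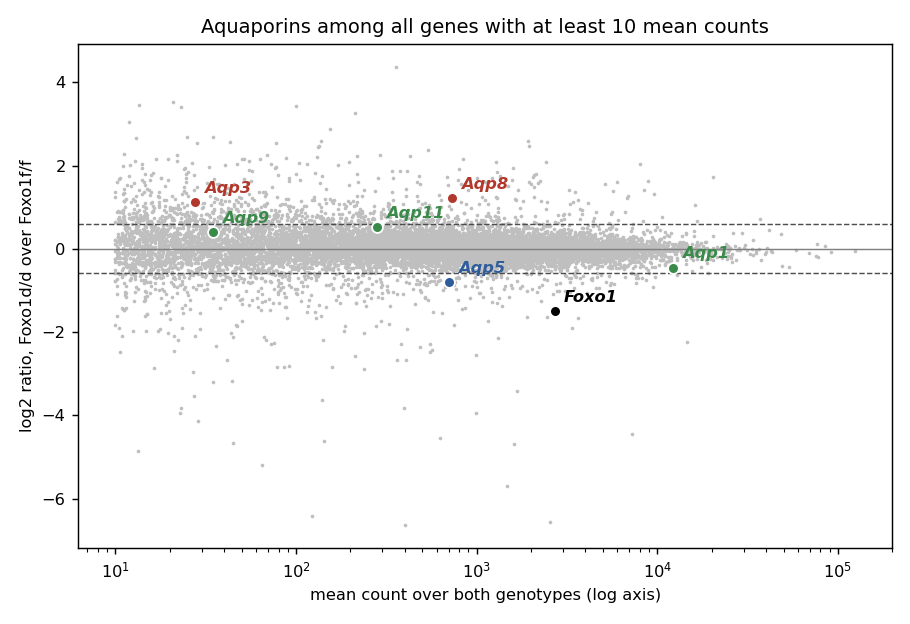
Log2 ratio (Foxo1d/d relative to Foxo1f/f) against the mean count over both genotypes (log axis), with 1 grey point for each of the 15696 genes with at least 10 mean counts, Foxo1 in black, and dashed lines at a fold of 1.5. Aqp8 (1.21) and Aqp3 (1.13), in red, lie above the upper line, Aqp5 (-0.80), in blue, lies below the lower line, and Aqp11, Aqp9 and Aqp1, in green, lie between them.

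Aqp1, the water channel of capillary endothelium, erythrocytes and the inner uterine muscle, was by far the most abundant aquaporin of the uterus. It averaged 13777 counts in Foxo1f/f uteri and 10532 in Foxo1d/d. This was 1.36-fold lower in Foxo1d/d, with the log2 ratio at -0.45 (interval -0.47 to -0.43), and 5.34% of all genes tested had a lower ratio. So many counts leave little counting error, but the ratio stays inside the limit of 1.5-fold. Levels of different genes were compared as CPM (counts scaled to a total of 1000000 in each genotype) per kilobase of exon. On that scale Aqp1 stood at 201 in Foxo1f/f and 147 in Foxo1d/d, above 98.7% and 98.0% of the 13997 tested genes with a known length. In Foxo1f/f uteri its level was 10.7 times (counting interval 10.3 to 11.2) that of Aqp5, the next aquaporin. In Foxo1d/d uteri the next aquaporin was Aqp8, and Aqp1 was 5.81 times (5.60 to 6.03) its level.

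The medians of the vessel and muscle marker lists lay on the same side as Aqp1 and nearer to 0. Of all genes tested, 5.43% passed 1.5-fold on the higher side and 3.51% on the lower. None of 16 markers of blood endothelium passed it in either direction. Their median log2 ratio was -0.21, and their summed level went from 2759 to 2399 CPM, with Pecam1 the most abundant at mean counts of 9743 and 8701. The most abundant gene of a list is here the gene with the most counts over both genotypes together, without regard to length. None of 10 markers of smooth muscle passed the limit either, with a median of -0.26 and a summed level of 7736 and 6336 CPM. Their most abundant gene, Myh11, averaged 60677 and 46984 counts, and its log2 ratio was -0.43. Of the 5 markers of lymphatic endothelium, 4 were tested and none passed, with a median of -0.29, a sum of 139 and 116 CPM, and Flt4 as the most abundant gene, while Ccl21a was listed at 0. For erythrocytes, which carry Aqp1 protein but no nucleus, only Alas2 of the 6 markers counted had enough counts, and it was higher in Foxo1d/d (mean counts 147 and 403), while Slc4a1 was under the count limit. The 4 globin genes on that list stood at 0 in both genotypes, so the blood content of the samples cannot be read from them, and the markers counted, which are not the whole list, summed to 5.74 and 15.1 CPM. In whole uterus, fewer cells of a type and less RNA per cell cannot be told apart. The part of vessels, muscle and blood in the lower Aqp1 count was not tested.

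Aqp5, the apical water channel of secretory epithelia, which in the mouse uterus is known from the glands, averaged 878 counts in Foxo1f/f uteri and 525 in Foxo1d/d. It was 1.74-fold lower in Foxo1d/d, with the log2 ratio at -0.80 (interval -0.89 to -0.71). Only 2.08% of all genes tested had a lower ratio. Aqp8, a channel for water, ammonia and hydrogen peroxide, averaged 425 counts in Foxo1f/f uteri and 1029 in Foxo1d/d. It was 2.32-fold higher in Foxo1d/d, with the log2 ratio at 1.21 (interval 1.12 to 1.31), and 98.7% of all genes tested had a lower ratio. Aqp5 and Aqp8 had opposite ratios, and their order of abundance was exchanged. Per kilobase, Aqp5 stood at 18.7 CPM in Foxo1f/f, 1.71 times (1.60 to 1.83) the 10.9 CPM of Aqp8. In Foxo1d/d Aqp8 stood at 25.3 CPM per kilobase, 2.36 times (2.22 to 2.51) the 10.7 CPM of Aqp5. Each order exceeded counting error. Among the tested genes with a length, Aqp5 went from percentile 66.8 of level to 48.7 and Aqp8 from 49.9 to 75.6.

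**Figure D2:**
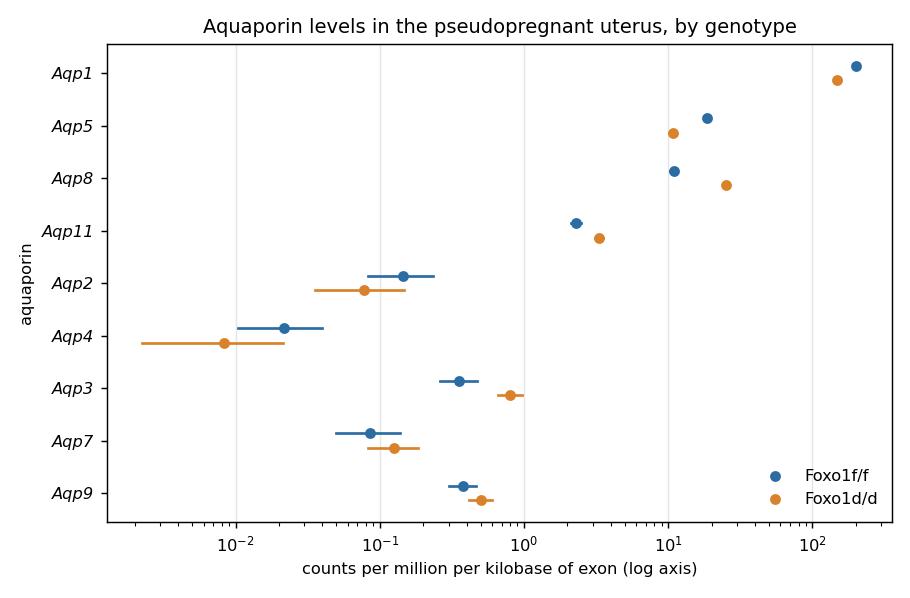
Level of each of the 9 aquaporins in CPM per kilobase of exon (log axis) in Foxo1f/f (blue) and Foxo1d/d (orange) uteri, as the mean of 3 libraries with its exact 95% counting interval, which is narrower than the point for the abundant genes. Aqp1 leads in both genotypes at 201 and 147, and Aqp5 (18.7 and 10.7) and Aqp8 (10.9 and 25.3) change places.

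The promoters shown are those of Aqp8 and Aqp3, the members that were at least 1.5-fold higher, and that of Aqp1, the most abundant member. RefSeq promoter windows were found for 8 of the 9 aquaporins, by symbol, on GRCm38.p6. Each sequence below is the 250 bases before the RefSeq start, 5′ to 3′ on the strand of the gene, except that the last 3 bases for Aqp8 are left out because they lie in its first exon in GENCODE release M21. They are chr7:123462044-123462290 on the plus strand for Aqp8, chr4:41098184-41098433 on the minus strand for Aqp3 and chr6:55336049-55336298 on the plus strand for Aqp1, all upstream of the first exon and outside other RefSeq genes. The build of the authors' alignment is given as mm10, which is GRCm38, in the methods of the study, whereas the submitters' processing notes name mm9. Capitals mark matches to 6 motifs searched on both strands.
Aqp8: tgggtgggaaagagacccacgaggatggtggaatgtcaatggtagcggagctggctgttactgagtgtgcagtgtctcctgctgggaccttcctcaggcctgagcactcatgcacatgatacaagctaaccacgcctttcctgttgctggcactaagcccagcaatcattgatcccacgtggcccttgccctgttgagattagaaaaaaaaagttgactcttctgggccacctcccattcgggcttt
Aqp3: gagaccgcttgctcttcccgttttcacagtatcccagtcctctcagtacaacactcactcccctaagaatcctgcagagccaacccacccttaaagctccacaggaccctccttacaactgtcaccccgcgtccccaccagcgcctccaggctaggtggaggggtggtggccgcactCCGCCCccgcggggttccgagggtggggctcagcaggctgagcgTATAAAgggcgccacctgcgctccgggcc
Aqp1: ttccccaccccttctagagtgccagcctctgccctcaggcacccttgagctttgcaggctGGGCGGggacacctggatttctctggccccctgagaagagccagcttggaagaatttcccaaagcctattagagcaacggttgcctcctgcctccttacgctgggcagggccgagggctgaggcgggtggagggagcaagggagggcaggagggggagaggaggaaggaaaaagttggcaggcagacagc
The capitals in Aqp3 are the GC box GGGCGG, here on the opposite strand, and the TATA box TATAAA, from 29 to 24 bases before the start. Aqp1 held a GC box match on its own strand that begins 190 bases before the start, and Aqp8 held no match to any of the 6 motifs. The forkhead core TGTTTAC was in none of the 10 windows of the 8 aquaporins and in 3.17% of all 32851 windows of the table. The receptor element TGTTCT, shared by the progesterone and glucocorticoid receptors, was found in windows of Aqp2, Aqp7 and Aqp9 and in 16.1% of all windows. GGTCA, an arm of the estrogen receptor palindrome, was found in windows of Aqp5, Aqp7, Aqp9 and Aqp11 and in 35.2% of all windows. The palindrome itself, GGTCANNNTGACC, which includes that arm, was in no aquaporin window and in 0.0639% of all windows. TATAAA was in 12.4% of all windows and, of the aquaporins, in Aqp3 alone, and GGGCGG was in 32.7% and in windows of Aqp1, Aqp3 and Aqp5. Not all of these matches lie upstream of a gene. Those of Aqp5 are in its first exon, and those of Aqp7 and Aqp9 are inside the RefSeq span of the gene itself. The TGTTCT matches of Aqp7 and Aqp9, and 1 GGTCA match of Aqp7, lie in an exon. The window of Aqp5 is not printed, because 246 of its bases lie in the first exon of Aqp5 in GENCODE. It was rich in G and C, at 78.4% against a median of 52.4% over all windows, whereas Aqp8 stood at that median with 52.4%. These matches describe letters in a short window. They are not evidence of binding, and a window without a match says nothing about the factor elsewhere at the gene.

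Markers of the uterine glands and of the luminal epithelium were counted beside Aqp5 and Aqp8. For comparison, 5.43% of all genes tested were at least 1.5-fold higher in Foxo1d/d and 3.51% at least 1.5-fold lower. Of 6 glandular markers in the table, 4 were at least 1.5-fold lower, 1 (Lif) was higher, and the median log2 ratio was -2.75. Their summed level went from 1090 to 207 CPM. In Foxo1f/f most of it belonged to the protease genes Prss29 (mean counts 13746 and 652) and Prss28 (5046 and 55.0), close paralogs that can share reads, with Spink3 at 3104 and 124 and Sult1d1 at 5440 and 2740. Foxa2, the transcription factor that defines uterine glands, had mean counts of 280 and 300, and its log2 ratio was 0.04 (interval -0.10 to 0.18). Its level differed by less than counting error. Lif, at 854 and 1774, was higher. Whether the number of glands differed was not tested here. The study itself counted glands on an earlier day of pregnancy and reported no difference between the genotypes. Of the luminal epithelium, 5 markers were counted and 5 (Calb1, Lpar3, Msx1, Wnt7a and Ihh) were higher, but the list is not reported whole, so that its count and median do not stand for the full list. Their median was 1.11, their sum 119 and 310 CPM, and their most abundant gene Calb1, with mean counts of 898 and 3948. Of 11 markers of epithelium in general, likewise not the whole list, 2 (Elf3 and Krt19) were higher and 1 (Spint1) lower. Their median was 0.29 and their sum 908 and 1052 CPM, with Cdh1 the most abundant at 4438 and 4981. Ihh, Msx1 and Lif on these lists are genes that the study itself measured again after RNA-seq, and they add no independent direction. The part of these epithelial differences in the ratios of Aqp5 and Aqp8 was not tested.

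The aquaglyceroporins were scarce. Aqp3, which passes glycerol and water across the basolateral membrane of epithelia and is abundant in basal keratinocytes, averaged 16.3 counts in Foxo1f/f uteri and 38.7 in Foxo1d/d. It was 2.27-fold higher in Foxo1d/d, with the log2 ratio at 1.13 (interval 0.69 to 1.69), and 98.5% of all genes tested had a lower ratio. With at least 100 mean counts required, Aqp3 is not tested and Aqp8 is the only aquaporin on the higher side. Aqp9, the glycerol channel of hepatocytes and some leukocytes, had mean counts of 29 and 40.3. Its 1.33-fold difference, a log2 ratio of 0.40 (0.01 to 0.83), barely exceeded counting error. Aqp7, the glycerol channel of adipocytes and capillaries, had mean counts of 5.67 and 8.67, and its interval of -0.39 to 1.53 on the log2 scale included no difference. Per kilobase, Aqp9 and Aqp3 stood at 0.375 and 0.354 CPM in Foxo1f/f, an order within counting error (ratio 1.06, interval 0.737 to 1.53). In Foxo1d/d Aqp3 stood at 0.804 CPM per kilobase, 1.61 times (1.24 to 2.09) the 0.499 of Aqp9, and Aqp7 was lowest of the aquaglyceroporins in both genotypes, at 0.0858 and 0.126.

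Markers of some other cells in which these channels are known elsewhere in the body were counted as well. The shares of all genes tested past 1.5-fold were 5.43% on the higher side and 3.51% on the lower. Of 10 adipocyte markers, 8 were higher, namely Adipoq (mean counts 53.7 and 201), Plin1 (19.3 and 90.0), Cidec (30 and 147), Retn, Fabp4, Cfd, Adrb3 and Lep. Pck1 was lower, and the most abundant gene, Plin4, had mean counts of 651 and 674. The median log2 ratio of the list was 1.76 and its sum 66.9 and 104 CPM. Of 10 markers of squamous or urothelial epithelium, 5 were tested and 3 of these were higher. Krt5 (37.0 and 236) had the most counts over both genotypes together, though fewer than Trp63 in Foxo1f/f, Krt15 had mean counts of 15.3 and 184 and Krt14 of 15.0 and 66.3, the median was 2.01 and the sum 8.91 and 25.6 CPM. Trp63, which defines basal squamous cells, averaged 90.3 and 100 counts, with its log2 ratio at 0.08 (-0.16 to 0.33), and Upk1a, at 68 and 99.3 counts, stayed inside 1.5-fold too. Krt6a, Krt13, Upk2 and Upk3a had mean counts under 10, and Sprr1b was at 0. Of 9 tested markers of myeloid leukocytes, 2 (Mpo and S100a9) were higher, and Elane had mean counts near 0. Their median was 0.33 and their sum 543 and 658 CPM, with Lyz2 the most abundant at 6356 and 7975. With genotype means alone, whether a single pool holds most of the keratin or adipocyte counts cannot be read, and the part of these cells in the counts of Aqp3, Aqp7 and Aqp9 was not tested.

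**Figure D3:**
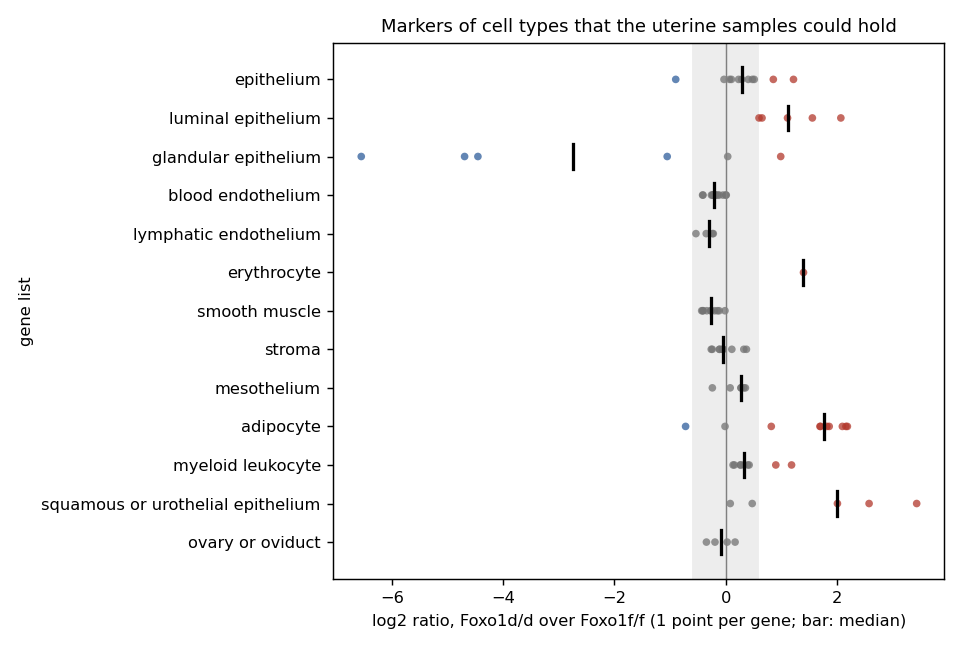
Log2 ratio (Foxo1d/d relative to Foxo1f/f) for each tested marker of 13 cell types, with 1 point per gene, the median of each list as a black bar, and the range inside 1.5-fold in grey (red points higher, blue points lower). Glandular markers (median -2.75) lie lowest, and the squamous or urothelial (2.01) and adipocyte (1.76) markers highest, while blood endothelium (-0.21) and smooth muscle (-0.26) stay inside the grey range.

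Stroma, mesothelium and ovary or oviduct were the remaining cell types counted beside the aquaporins. None of 10 stromal markers passed 1.5-fold (5.43% of all genes tested did on the higher side, 3.51% on the lower). Their median was -0.05 and their sum 11867 and 11651 CPM, led by Col3a1, and the uterine genes Hoxa10, Hoxa11 and Hand2 among them had mean counts of at least 2968 in both genotypes. None of 6 mesothelial markers passed either, with a median of 0.28, a sum of 218 and 204 CPM and Wt1 as the most abundant gene. Of 9 markers of ovary or oviduct, 4 were tested and none passed, with a median of -0.08, a sum of 146 and 158 CPM and Ovgp1 as the most abundant gene at mean counts of 2923 and 3433. Zp3, Fshr and Cyp19a1 on that list had mean counts near 0.

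Aqp11, an intracellular channel of the endoplasmic reticulum, averaged 224 counts in Foxo1f/f uteri and 338 in Foxo1d/d. It was 1.45-fold higher in Foxo1d/d, just inside the limit, with the log2 ratio at 0.53 (interval 0.39 to 0.68). It came next after Aqp1, Aqp5 and Aqp8 in both genotypes, at 2.29 and 3.31 CPM per kilobase. Aqp2, the vasopressin-regulated channel of the collecting duct, and Aqp4, the channel of astrocyte endfeet, were near the limit of detection. Aqp2 had 16 counts summed over the Foxo1f/f libraries and 9 over the Foxo1d/d libraries, and Aqp4 had 10 and 4. Their intervals, -2.25 to 0.37 for Aqp2 and -3.51 to 0.41 for Aqp4, included no difference. No difference was detected for either gene at this depth, at which 3 counts in all correspond to 0.0383 CPM in Foxo1f/f and 0.0367 CPM in Foxo1d/d. The remaining aquaporins of the mouse, outside the 9, were as scarce. Mip, the lens channel, had mean counts of 7.67 and 8.67, and Aqp6, an intracellular channel of the kidney, had 1 and 5 summed counts, with an interval of -0.90 to 7.82. Aqp12, known from the pancreas, had 0 and 2 summed counts, for which no fold is given.

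**Figure D4:**
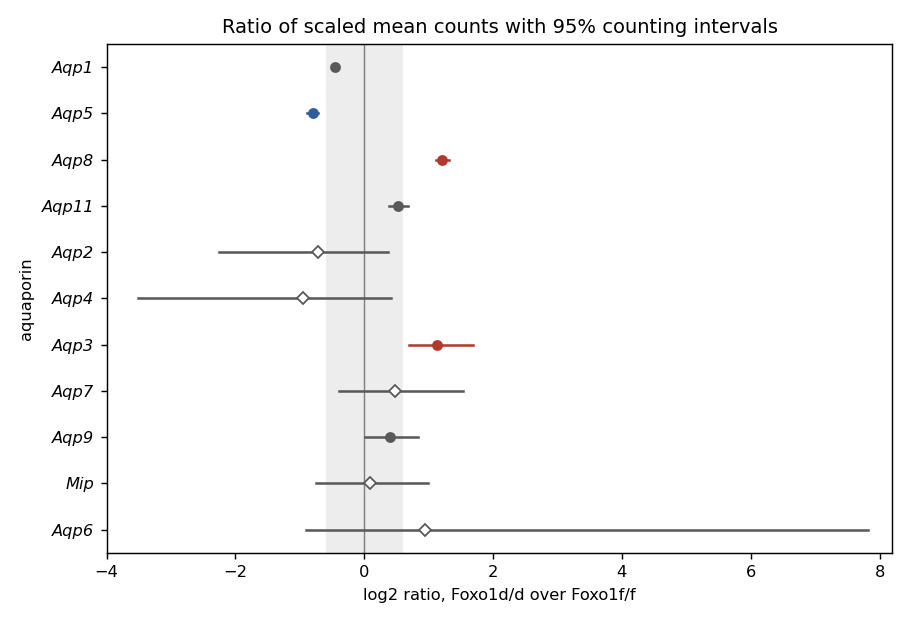
Log2 ratio (Foxo1d/d relative to Foxo1f/f) for the 9 aquaporins and for Mip and Aqp6, with the exact 95% counting interval as a line. Filled points have at least 10 mean counts, open diamonds fewer, and grey marks the range inside 1.5-fold. Aqp8 (1.21, interval 1.12 to 1.31) and Aqp3 (1.13, interval 0.69 to 1.69) lie wholly to the right of the grey range and Aqp5 (-0.80, interval -0.89 to -0.71) wholly to the left, whereas Aqp2, Aqp4, Aqp7, Mip and Aqp6 cross a ratio of 1.

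Taken as a pool of transcripts, the 9 aquaporins summed to 588 CPM in Foxo1f/f uteri and 459 CPM in Foxo1d/d, with the log2 ratio at -0.36. Without Aqp1 the sum went the other way, from 60.7 to 72.8 CPM, a log2 ratio of 0.26. Aqp1 held 89.7% of the counts of the pool in Foxo1f/f (exact 95% binomial interval 89.4% to 90.0%) and 84.2% (83.8% to 84.5%) in Foxo1d/d. The share of Aqp8 went from 2.77% (2.62% to 2.92%) to 8.22% (7.94% to 8.50%), and that of Aqp5 from 5.72% (5.50% to 5.93%) to 4.19% (3.99% to 4.40%). Measured per kilobase, Aqp1 held 85.9% and 78.3%, Aqp8 4.67% and 13.5%, and Aqp5 8.01% and 5.70%. The pool was therefore smaller in Foxo1d/d, and more of it was Aqp8.

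Aqp2 and Aqp5 lie side by side with Aqp6 on chromosome 15. Aqp5 spans chr15:99591028-99594829 on GRCm38.p6, with a gap of 6482 bases to Aqp2 and of 3638 bases to Aqp6. Within this cluster only Aqp5 had more than a few counts, and the long noncoding gene Gm34765 overlaps all 3 in RefSeq. Gm34765, like Gm32714 over Aqp9 and A830021F12Rik over Aqp4, is not among the genes of the table. Reads of these overlapping genes were not separated from those of the aquaporins here. Aqp3 and Aqp7 lie 44486 bases apart on chromosome 4. Among the genes counted, those nearest to the aquaporins were also examined, a step added after the values of the aquaporins were seen. Genes that were not counted, or not under the same symbol, were passed over and can lie between them. Beside Aqp8, Lcmt1 (log2 ratio 0.13) and Zkscan2 (-0.10) were inside 1.5-fold, as were Nol6 (0.13) and Nfx1 (-0.15) beside Aqp3. Beside Aqp5, Racgap1 stood at 0.23 and Faim2, with mean counts of 52.7 and 33.3, at -0.71. Inmt, an amine methyltransferase gene 161308 bases away, was the nearest of these genes on the left of Aqp1. It averaged 913 and 193 counts, and its log2 ratio of -2.30 (interval -2.44 to -2.17) was lower than that of Aqp1 itself. Crhr2, further left, stood at -0.60. On the right, 6430584L05Rik stood at -0.53, and Ghrhr, 27739 bases away, had too few counts to be tested. Of stretches of 50 bases in their transcripts, Aqp1, Aqp2, Aqp4, Aqp5, Aqp8, Aqp9 and Aqp11 shared none with transcripts of other genes. Aqp3 shared 3 of 1716 and Aqp7 107 of 2471, or 4.33%, none of them with another aquaporin. No such stretch was thus shared between these 9 aquaporins, and among them only Aqp7 shared more than a few with other genes. Of the aquaporins outside the 9, Mip shared 1174 of 2095, or 56.0%, with the gene Gm26847, and Aqp6 and Aqp12 shared none.

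The genes that work with the aquaporins were described by function. Of 21 tested genes of vasopressin and cAMP signaling and aquaporin trafficking, 0 were higher and 0 lower, with a median log2 ratio of -0.01. The most abundant was the ubiquitin ligase Nedd4, with mean counts of 42437 and 42838, and the receptor Avpr2 was below the count limit at 5.33 and 7. The 8 genes of the complex that anchors AQP4 at the membrane were likewise all inside 1.5-fold, with a median of -0.20 and Utrn as the most abundant gene over both genotypes (Dag1 in Foxo1d/d alone). Of 12 tested genes of the osmotic response, the betaine transporter Slc6a12 was higher (mean counts 19.3 and 60.0, log2 ratio 1.52), and the myo-inositol transporter Slc5a3 was lower (1980 and 792, -1.38). Both transporters import organic osmolytes and are known targets of the transcription factor Nfat5, whose own mean counts were 10904 and 10039 (-0.18). The median of this list was -0.13, its most abundant gene over both genotypes Slc6a6 (Nfat5 in Foxo1f/f alone), and Akr1b3 was listed at 0, which, as for Ccl21a and the globin genes, is not read here as absence. Of 11 tested genes of glycerol and triacylglycerol handling, which supply and use the glycerol that aquaglyceroporins carry, the acyltransferase Dgat2 (1496 and 3409, log2 ratio 1.13) and the glycerol phosphate dehydrogenase Gpd1 (72.3 and 180, log2 ratio 1.24) were higher and 0 were lower. Their median was 0.04 and Gpam the most abundant gene over both genotypes (Dgat2 in Foxo1d/d alone), and Gk was not analysed here. Both higher genes are also abundant in adipocytes, of which 8 of 10 markers were higher and 1 (Pck1) lower (median 1.76). The other 9 tested genes of the glycerol list stayed inside 1.5-fold, among them Pnpla2 (log2 ratio -0.35), Mgll (-0.21), Lipe (0.18) and Agpat2 (0.23). The part of adipocytes in the counts of Dgat2 and Gpd1 was not tested.

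Ion transport sets the osmotic gradient that water follows through aquaporins. Of 22 tested genes of luminal ion and fluid transport, 7 were higher and 3 lower, with a median log2 ratio of 0.12. The sodium pump regulator Fxyd4 went from a mean count of 732 to 2413 (log2 ratio 1.66) and the carbonic anhydrase Car12 from 2495 to 7710 (1.57). The chloride channel Cftr went from 38 to 97 (1.27). Slc12a3 (0.97), Scnn1b (0.72), Car2 (0.70) and Kcnn4 (0.68) were the other higher genes, and Slc26a4 (-1.40), Scnn1g (-1.13) and Slc9a2 (-0.81) the lower ones, while Slc9a3 and Slc26a3 had mean counts near 0 and were not tested. The epithelial sodium channel was thus uneven in its subunits, with Scnn1a, at 0.33, inside the limits. The most abundant gene of the list as counted here was, over both genotypes, Atp1b3, with mean counts of 7167 and 9622 (Slc12a2 in Foxo1f/f alone). Of 10 genes of the estrogen response, 6 were higher (Padi1, Padi2, Ltf, Clca3, Greb1 and Lcn2) and Gjb2 was lower. Their median was 0.62, and their most abundant gene over both genotypes, Igf1, stood at -0.43 (C3 had more counts in Foxo1d/d alone). Of 14 genes of the progesterone response, 4 were higher (Alox15, Lrp2, Ihh and Areg) and 3 lower (Fst, Cyp26a1 and Calca), with a median of 0.09 and Alox15 the most abundant over both genotypes (Nr2f2 in Foxo1f/f alone). Over these 7 lists together 20 of 98 tested genes were higher and 8 lower, beside the 5.43% and 3.51% of all genes. Genes of ion transport and of the estrogen, progesterone and osmotic responses thus lay on both sides, as the aquaporins did. The trafficking machinery of the channels and the AQP4 anchoring genes stayed inside 1.5-fold.

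**Figure D5:**
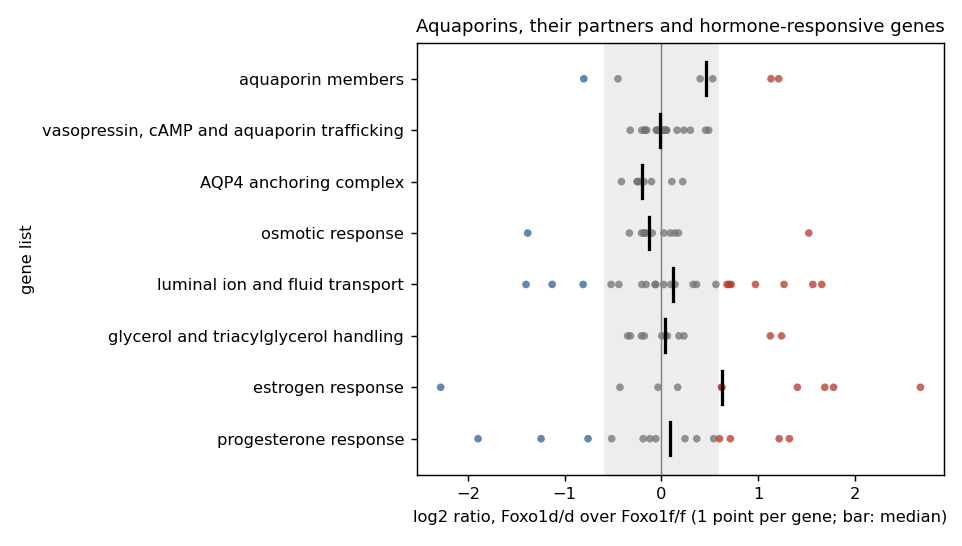
Log2 ratio (Foxo1d/d relative to Foxo1f/f) for each tested gene of the aquaporins and of 7 lists of partner and hormone-responsive genes, with 1 point per gene, the median as a black bar and the range inside 1.5-fold in grey (red points higher, blue points lower). The trafficking (median -0.01) and AQP4 anchoring (-0.20) genes stay inside the grey range. Luminal transport (0.12) and the estrogen (0.62), progesterone (0.09) and osmotic (-0.13) responses have points on both sides of it.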

How the data were processed

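RNA-seq was made by the authors from 6 uterine libraries (Illumina TruSeq, 3 per genotype, each from 2 pooled females). Per the methods of the study, the authors trimmed the reads and aligned them to mm10 (mm9 in the submitters' processing notes) by STAR. The authors then took out duplicate reads by Picard, obtained the count of every RefSeq gene by HTSeq and compared the genotypes by edgeR; versions are not given in the sources used here. The authors deposited, for each gene, the raw count averaged over the 3 libraries of a genotype, not scaled to library size, so that a deeper library weighs more. All 23420 pairs of means were whole after multiplication by 3 (tolerance 1e-06), which gave the summed counts. The deposited table also holds the authors' fold change, average log2 CPM, p-value and FDR, which were not used. No other columns of single samples were left out (0). Duplicate removal can flatten differences between abundant genes, since identical fragments are counted once.

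Computed here (Python 3.11.15, pandas 2.3.3, scipy 1.17.1, matplotlib 3.10.9) were log2 ratios of means scaled to genotype totals (78375043 and 81773890 summed counts) and exact binomial intervals. Calls were made at 1.5-fold among genes with at least 10 mean counts over both genotypes. The steps were tested on simulated data that held counting error alone, so that test says nothing of differences between pools. Lengths were the union of exons of GENCODE M21 transcripts paired with RefSeq mRNAs, found for 89.2% of tested genes. Positions and promoters came from RefSeq. Named genes were all aquaporins, Foxo1 and, of each list, genes past 1.5-fold, the most abundant gene and markers at or near 0; others were named after their values were seen. The members and lists were chosen with earlier results of these data known. Lists were described by counts and medians, with no test. Results for some listed genes are not reported here, and the lists that held them (epithelium, luminal epithelium, erythrocyte, luminal ion transport) were counted without them after the values were seen.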

Additional observations from a re-analysis of the deposited data

How the results depend on the processing

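No paired analysis was possible because the replicate numbers in the labels belong to single libraries, and only the mean of each genotype was used; for the same reason no library could be left out in turn. Under a pseudocount of 0.1, centring on the median gene and scaling without the 100 genes with the most counts, all 30 log2 ratios of the 9 aquaporins and Foxo1 kept their sign and their side of 1.5-fold, and Aqp1 alone left its counting interval, at -0.47 when centred. Centring shifts every log2 ratio by -0.0247, which is larger in size than the lower limit of Aqp9, 0.0053. When centred, the interval of Aqp9 therefore includes a ratio of 1. The number of aquaporins on the higher side was 4 at a limit of 0.32 on the log2 scale (1968 of 15696 genes in all) and 1 with at least 100 mean counts (410 of 12950), because fewer genes were then tested. The number on the lower side was 2 at that limit (1412 of 15696), 0 at a fold of 2 (220 of 15696) and 3 without a filter on low counts (1135 of 23420), which lets in Aqp2 and Aqp4. The median log2 ratio was 0.041 with at least 100 mean counts, over the 4 aquaporins left. Chosen after seeing the data, a fold of 2 left 12 higher and 6 lower of 98 genes in the 7 partner lists (313 and 220 of all 15696) and the limit of 0.32 gave 27 higher and 16 lower (1968 and 1412), and the length of the longest transcript gave Aqp1 85.9% and 78.2% of the summed level per kilobase. Counts under 10 limit Aqp2, Aqp4 and Aqp7, and the spread between pools was not measured.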
